A study of Mus musculus with 12 samples.

Results

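The 9 glycolysis genes Slc2a1, Hk1, Hk2, Pfkp, Pfkfb3, Pkm, Ldha, Slc16a3 and Pdk1, together with Acod1, the gene of the enzyme that makes itaconate, were taken by symbol from the 29428 genes of the deposited table. All 10 members had a row, and all 10 were among the 16127 genes that reached 0.5 TPM (transcript abundance scaled for length and depth) in at least 3 of the 12 libraries and were tested. Poly(A) RNA was sequenced from a pair of immortalised mouse striatal cell lines, STHdhQ7/Q7 and STHdhQ111/Q111, labelled normal and Huntington's disease. They derive from knock-in mice whose huntingtin alleles carry a CAG repeat of normal length in STHdhQ7 cells and an expanded one in STHdhQ111 cells. Both lines were grown in DMEM with 10% FBS at 33 °C and used within 20 passages. Each was left untreated (Q7-C, Q111-C) or given murine IFNγ (100 ng/mL) together with LPS (5 μg/mL) for 24 h (Q7-T, Q111-T), with 3 libraries in each of the 4 groups. Each genotype is 1 cell line, so that the repeat and any other difference between the lines cannot be told apart. Nothing in the labels says that the 3 libraries of a group came from separate cultures, and p-values measure only the spread between these libraries.

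Glycolysis splits glucose into pyruvate in the cytosol. Glucose enters through the facilitative transporter GLUT1 (Slc2a1) and is trapped as glucose 6-phosphate by a hexokinase (Hk1, Hk2). Phosphofructokinase (Pfkp is the platelet-type isozyme) makes the committed step, and the kinase of Pfkfb3 makes fructose 2,6-bisphosphate, its strongest activator. Pyruvate kinase (Pkm) yields pyruvate, which lactate dehydrogenase A (Ldha) reduces to lactate for export through MCT4 (Slc16a3), whereas Pdk1 phosphorylates and inhibits the pyruvate dehydrogenase complex and so keeps pyruvate out of mitochondria. Macrophages activated by LPS and IFNγ are known to run this route at a high rate in the presence of oxygen, and several of its genes are textbook targets of hypoxia-inducible factor 1 (HIF-1). Acod1 (formerly Irg1) decarboxylates cis-aconitate, an intermediate of the tricarboxylic acid (TCA) cycle, to itaconate, an inhibitor of succinate dehydrogenase. It is best known from activated macrophages.

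The 250 bases before the start of Acod1, Slc2a1, Hk2 and Pdk1 are shown because these 4 members rose at least 2-fold in STHdhQ111 cells and were higher in every Q111-T library than in any other library. They come from RefSeq on GRCm38.p6 and are written 5′ to 3′ on the gene's strand, at chr14:103046762-103047011 (plus strand) for Acod1, chr4:119108495-119108744 (plus) for Slc2a1, chr6:82774455-82774704 (minus) for Hk2 and chr2:71872974-71873223 (plus) for the first of the starts listed for Pdk1. Capitals mark matches to ACGTG or GCGTG on either strand, the core letters of the hypoxia response element.
Acod1: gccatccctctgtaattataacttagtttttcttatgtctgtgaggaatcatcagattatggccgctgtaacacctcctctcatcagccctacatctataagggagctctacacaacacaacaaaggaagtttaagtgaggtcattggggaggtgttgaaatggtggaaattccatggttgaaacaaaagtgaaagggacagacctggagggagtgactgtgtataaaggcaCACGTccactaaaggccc
Slc2a1: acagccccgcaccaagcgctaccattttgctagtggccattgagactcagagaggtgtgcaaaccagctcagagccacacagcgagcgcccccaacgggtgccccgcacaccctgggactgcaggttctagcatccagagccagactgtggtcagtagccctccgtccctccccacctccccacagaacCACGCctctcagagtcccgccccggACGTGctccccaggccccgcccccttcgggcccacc
Hk2: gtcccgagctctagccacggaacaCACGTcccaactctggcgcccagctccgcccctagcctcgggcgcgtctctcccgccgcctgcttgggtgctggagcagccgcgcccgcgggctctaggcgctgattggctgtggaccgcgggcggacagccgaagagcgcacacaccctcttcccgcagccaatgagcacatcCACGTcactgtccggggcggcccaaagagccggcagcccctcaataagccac
Pdk1: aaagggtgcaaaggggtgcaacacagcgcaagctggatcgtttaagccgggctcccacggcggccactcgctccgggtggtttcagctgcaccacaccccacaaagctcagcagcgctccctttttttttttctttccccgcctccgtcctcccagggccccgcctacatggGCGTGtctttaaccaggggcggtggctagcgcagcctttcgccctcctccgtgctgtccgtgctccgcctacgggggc
A match was found in each of the 4 windows shown, 18 to 14 bases before the start in Acod1 and 36 to 32 bases before it in Slc2a1. The window of the other start listed for Pdk1 held none. The share of all windows with a match to either motif was not determined, so the 4 windows have no background to be read against. All 10 members matched the RefSeq table, with 15 start sites among them. ACGTG, which is also held in the E-box CACGTG, occurred in 8 of these 15 windows, against 16.6% of all 32851 windows of the same length, and GCGTG occurred in 6 of 15, against 28.2%. An E-box lay in 2 of the 15, 1 of them at Ldha and 1 at Pfkfb3, against 6.02% of all windows. No window of a member held the interferon-stimulated response element (2.98% of all windows), the gamma-activated site TTCNNNGAA (7.02%) or the NF-kB consensus (7.25%), all searched on both strands. For Acod1 and Slc2a1 the gene start of the deposited annotation lies inside the window. These matches are letters in a window and were not tested as binding sites.

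The 12 libraries held 57505990 to 96417834 estimated counts. Replicate 2 of Q7-T stood apart, its nearest library being replicate 1 of Q7-C rather than another Q7-T library, and replicate 2 of Q111-T was the farthest from the rest of its group. The lowest TPM of the group fell in Q7-T replicate 2 for 7 of the 10 members, in Q7-C replicate 1 for 9 and in Q111-T replicate 2 for 9. Values without 1 of these libraries are given where leaving it out changed a member's call and for some further members. Leaving out Q111-T replicate 2 changed no member's call in any of the 5 comparisons. Of 5 neuronal markers analysed here Tubb3, Map2 and Ppp1r1b reached 1 TPM in a library, whereas Snap25 and Syt1 did not exceed 0.025 TPM. The summed TPM of the 5 was higher after treatment, at 22.6 to 27.7 before and 58.7 to 86.3 after it in STHdhQ7 cells and 10.0 to 12.05 before and 29.4 to 33.1 after it in STHdhQ111 cells. Tubb3 carried this (log2 2.29, SE 0.25, adjusted p = 1.16e-04 and 2.77, SE 0.25, adjusted p = 1.53e-05), whereas Map2 fell in STHdhQ7 cells (-1.80, SE 0.34, adjusted p = 0.00868). Of 6 astrocyte markers Aldh1l1 and Slc1a3 reached 1 TPM, and the list summed to 1.05 to 1.98 TPM in STHdhQ7 libraries, 9.01 to 11.1 TPM in Q111-C and 4.16 to 5.24 TPM in Q111-T. In STHdhQ111 cells Slc1a3 fell from a mean of 9.86 to 2.75 TPM (log2 -1.75, SE 0.27, adjusted p = 7.67e-04) and Aldh1l1 rose from 0.038 to 1.32 TPM (adjusted p = 0.0116). All 6 mesenchymal markers reached 1 TPM in each group, from Tagln with a mean of 1.61 TPM in Q111-T to Vim with 2493 TPM in Q7-C. Their summed TPM was 4314.5 to 4888 in Q7-C and 3345 to 3745 in Q7-T. It was 3530 to 3679 in Q111-C and 1486 to 1600 in Q111-T, in which Vim fell (log2 -0.95, SE 0.19, adjusted p = 0.00403), and Col1a1 fell in both lines (-1.45, SE 0.14, adjusted p = 4.30e-05 in STHdhQ7 and -1.49, SE 0.14, adjusted p = 1.71e-05 in STHdhQ111 cells). Between the untreated lines Acta2 averaged 1670 TPM in Q7-C but 43.7 TPM in Q111-C, and Col1a1 265 TPM in Q7-C but 791 TPM in Q111-C. The part of these marker changes in the members' changes was not tested.

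After IFNγ/LPS, 6 of the 10 members rose in STHdhQ7 cells and 7 rose in STHdhQ111 cells, and none fell in either line by edgeR, by DESeq2 or at an unadjusted p under 0.05. Hk2, Pfkfb3, Ldha, Pdk1 and Acod1 rose in both lines, Slc16a3 passed the test in STHdhQ7 cells, and Slc2a1 and Pfkp passed it in STHdhQ111 cells. The treatment response differed between the lines for 3 members, Slc2a1, Hk2 and Acod1, each with the larger response in STHdhQ111 cells. A member is said to rise or fall when the Benjamini-Hochberg adjusted p of edgeR's quasi-likelihood test over all 16127 genes was under 0.05. In Q7-T vs. Q7-C 3.61% of all genes rose and 1.74% fell, and in Q111-T vs. Q111-C 11.3% rose and 7.33% fell. The median log2 fold change of the members was 0.99 in STHdhQ7 and 1.57 in STHdhQ111 cells, beside 0.0033 and -0.0050 over all genes. With a change of at least 2-fold also required, 5 members were called in Q7-T vs. Q7-C (4.04% of all genes) and 5 in Q111-T vs. Q111-C (11.2%). The TPM of treated and control libraries did not overlap for 6 members in STHdhQ7 cells (14.4% of all genes) and for 9 in STHdhQ111 cells (49.6%). The number that rose in STHdhQ7 cells was 3 without Q7-C replicate 2 or 3 and 6 without Q7-T replicate 2, and in fits that left out 1 library it was 6 to 8 in STHdhQ111 cells.

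**Figure D1:**
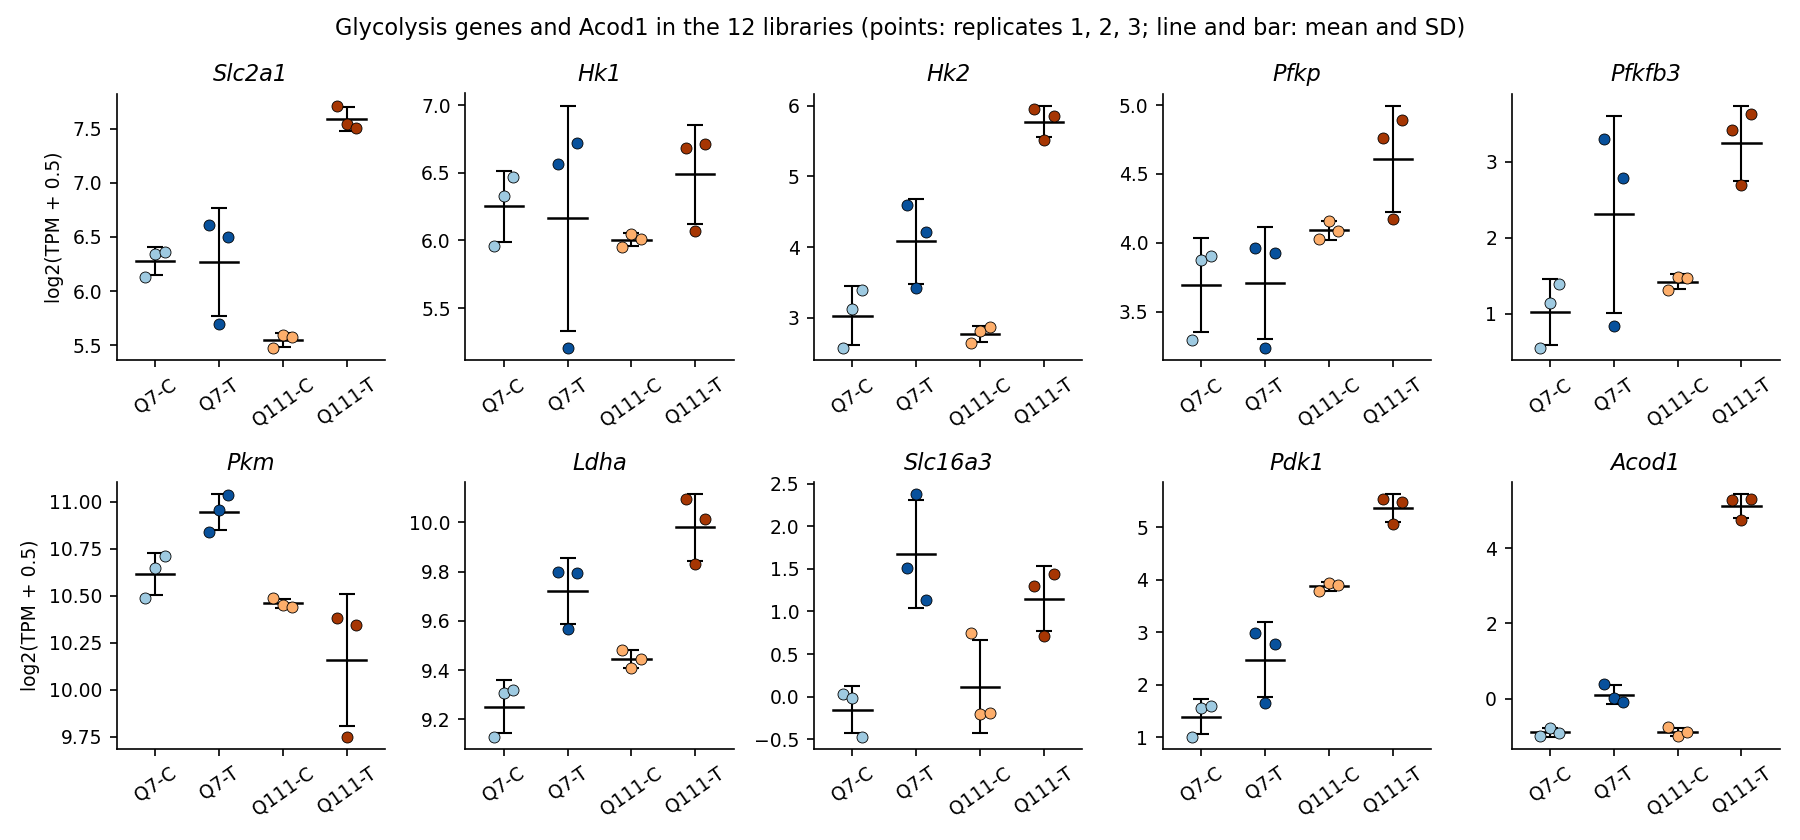
Level of each member in every library, as log2(TPM + 0.5) on the vertical axis (each panel has its own range), with the 4 groups on the horizontal axis; points are libraries in the order of replicates 1, 2 and 3, and the line and bar give the mean and SD. Slc2a1, Hk2, Pdk1 and Acod1 are higher in all 3 Q111-T libraries than in any other, and Q7-T replicate 2 lies below the other Q7-T libraries for Slc2a1, Hk1, Hk2, Pfkp, Pfkfb3, Ldha and Pdk1.

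For Slc2a1, the glucose transporter, the untreated lines already differed (chromosome 4, 119108711 to 119137983 on GRCm38, plus strand). Untreated STHdhQ7 cells gave 69.4, 80.6 and 81.9 TPM, against 44.0, 47.8 and 47.3 TPM for untreated STHdhQ111 cells. Treated STHdhQ7 cells gave 96.9, 51.4 and 90.1 TPM, a range that encloses the controls, whereas treated STHdhQ111 cells gave 209, 185 and 182 TPM, above all 9 other libraries. The order of the groups thus turned with treatment: Q111-C was below Q7-C (log2 fold change -1.06, SE 0.13, adjusted p = 1.14e-04) and Q111-T was above Q7-T (0.91, SE 0.13, adjusted p = 2.43e-04). In STHdhQ111 cells treatment raised Slc2a1 4.45-fold (log2 2.15, SE 0.13, adjusted p = 8.35e-07). In STHdhQ7 cells the log2 fold change was 0.18 (SE 0.13, adjusted p = 0.589), and 0.24 (adjusted p = 0.401) without Q7-T replicate 2. The difference between these responses was 1.97 on the log2 scale (SE 0.18, adjusted p = 1.72e-04), a 3.93-fold larger response in STHdhQ111 cells.

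Hexokinase 2 (chromosome 6, 82725025 to 82774454, minus strand), the inducible isozyme, had the largest rise of the 9 glycolysis members in treated STHdhQ111 cells. Hk2 was at 5.73, 6.53 and 6.76 TPM in Q111-C and at 61.3, 45.5 and 57.7 TPM in Q111-T. It was at 5.43, 8.21 and 10.0 TPM in Q7-C and at 23.8, 10.2 and 18.1 TPM in Q7-T. All Q111-T libraries lay above all Q7-T libraries, and these above all controls, although Q7-T replicate 2 exceeded the highest control by little. The rise was 9.22-fold in STHdhQ111 cells (log2 3.20, SE 0.17, adjusted p = 2.93e-07) and 2.46-fold in STHdhQ7 cells (log2 1.30, SE 0.16, adjusted p = 3.08e-04). The responses differed by 1.91 on the log2 scale (SE 0.22, adjusted p = 7.02e-04), or by 1.80 (adjusted p = 5.58e-04) without Q7-T replicate 2. Among controls Hk2 was lower in Q111-C by edgeR (log2 -0.60, SE 0.16, adjusted p = 0.0158), but the libraries overlapped and the call was lost in 5 of the 12 fits that left out a library (largest adjusted p = 0.092).

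Hk1, the widely expressed hexokinase (chromosome 10, 62268855 to 62379908, minus strand), passed the test in none of the comparisons. In STHdhQ7 cells its TPM was 61.7, 80.0 and 87.9 untreated and 94.3, 36.4 and 105 treated. In STHdhQ111 cells it was 61.5, 65.7 and 64.1 untreated and 102, 66.6 and 105 treated. In STHdhQ111 cells the treated libraries lay above the controls, with replicate 2 only just so, and the log2 fold change was 0.60 (SE 0.20, adjusted p = 0.0551). Without Q111-T replicate 2 it was 0.69 (adjusted p = 0.0506). Without Q7-T replicate 2, whose level sets part of the spread estimate shared by all groups, this difference passed (0.60, adjusted p = 0.00388), as did the lower level of Q111-C against Q7-C (-0.56, adjusted p = 0.0047). Both also passed without Q7-T replicate 3, by DESeq2 and with only the compared groups. As a ratio within a library, Hk2 to Hk1 was 0.102 ± 0.013 for Q7-C and 0.0994 ± 0.0062 for Q111-C (SD, 3 libraries per group), so that Hk1 made up most hexokinase mRNA in both untreated lines. The ratio was 0.252, 0.281 and 0.173 in the Q7-T libraries and 0.599, 0.683 and 0.552 in the Q111-T libraries. Replicate 2 was the highest of its group in both treated lines, although both of its TPM values were the lowest there. The treated groups overlapped neither each other nor their controls, and the exact permutation test, two-sided, gave p = 0.1 for these comparisons, the smallest that 3 against 3 libraries allow.

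Pfkp (chromosome 13, 6579768 to 6648777, minus strand) was at 15.8, 17.4 and 16.5 TPM in Q111-C and rose to 26.7, 17.5 and 29.2 TPM in Q111-T, replicate 2 lying barely above the highest control. The rise was 1.57-fold (log2 0.65, SE 0.14, adjusted p = 0.00564), or log2 0.75 (adjusted p = 0.00181) without that library. In STHdhQ7 cells Pfkp was at 9.34, 14.1 and 14.5 TPM untreated and 15.1, 8.93 and 14.7 TPM treated, with overlapping groups and a log2 fold change of 0.21 (SE 0.13, adjusted p = 0.547). The difference between the responses, 0.44 (SE 0.19, adjusted p = 0.227), did not pass. The isozyme Pfkm averaged 71.1 and 77.8 TPM in Q7-C and Q7-T and 110.7 and 91.5 TPM in Q111-C and Q111-T. It did not pass after treatment in either line (log2 0.44, SE 0.30, adjusted p = 0.57 and -0.19, SE 0.30, adjusted p = 0.755). The liver-type isozyme Pfkl, in contrast, rose in both lines by similar sizes (log2 1.25, SE 0.17, adjusted p = 7.59e-04 in STHdhQ7 and 1.24, SE 0.17, adjusted p = 3.61e-04 in STHdhQ111 cells). In group means Pfkl was below Pfkm except in Q111-T, and it was above Pfkp in every group. The Pfkp to Pfkl ratio accordingly fell from 0.427 ± 0.082 to 0.208 ± 0.038 in STHdhQ7 cells and from 0.291 ± 0.009 to 0.193 ± 0.014 in STHdhQ111 cells (SD, n = 3; exact permutation p = 0.1 for both, with no overlap).

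Pfkfb3 (chromosome 2, 11471433 to 11554077, minus strand) was low in both untreated lines, at 0.961, 1.70 and 2.12 TPM (Q7-C) and 1.98, 2.29 and 2.27 TPM (Q111-C). In Q111-T it reached 10.1, 5.94 and 11.9 TPM, above all controls, a 4.50-fold rise (log2 2.17, SE 0.42, adjusted p = 0.00371). In Q7-T it reached 9.33 and 6.37 TPM in replicates 1 and 3 but 1.29 TPM in replicate 2, within the range of the controls. The fitted rise of log2 1.89 in STHdhQ7 cells (SE 0.42, adjusted p = 0.0212) became 2.30 (adjusted p = 1.46e-04) without replicate 2, and it was lost when replicate 1 or 3 of Q7-T or any 1 of the Q7-C libraries was left out (log2 1.45 at the lowest, adjusted p up to 0.088, and 1.74 with 0.0804 without Q7-C replicate 1). No difference between the lines was detected in the response (0.27, SE 0.58, adjusted p = 0.844), and the size of this error leaves a difference of either sign possible. Its sister Pfkfb4 did not pass in either line (log2 -0.50, SE 0.16, adjusted p = 0.135 and -0.39, SE 0.16, adjusted p = 0.138). The Pfkfb3 to Pfkfb4 ratio was 0.213 ± 0.029 for Q7-C and 0.201 ± 0.009 for Q111-C, against 1.73, 0.443 and 1.16 in Q7-T and 1.06, 1.04 and 1.47 in Q111-T. In this ratio Q7-T replicate 2 also lay above all controls.

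**Figure D2:**
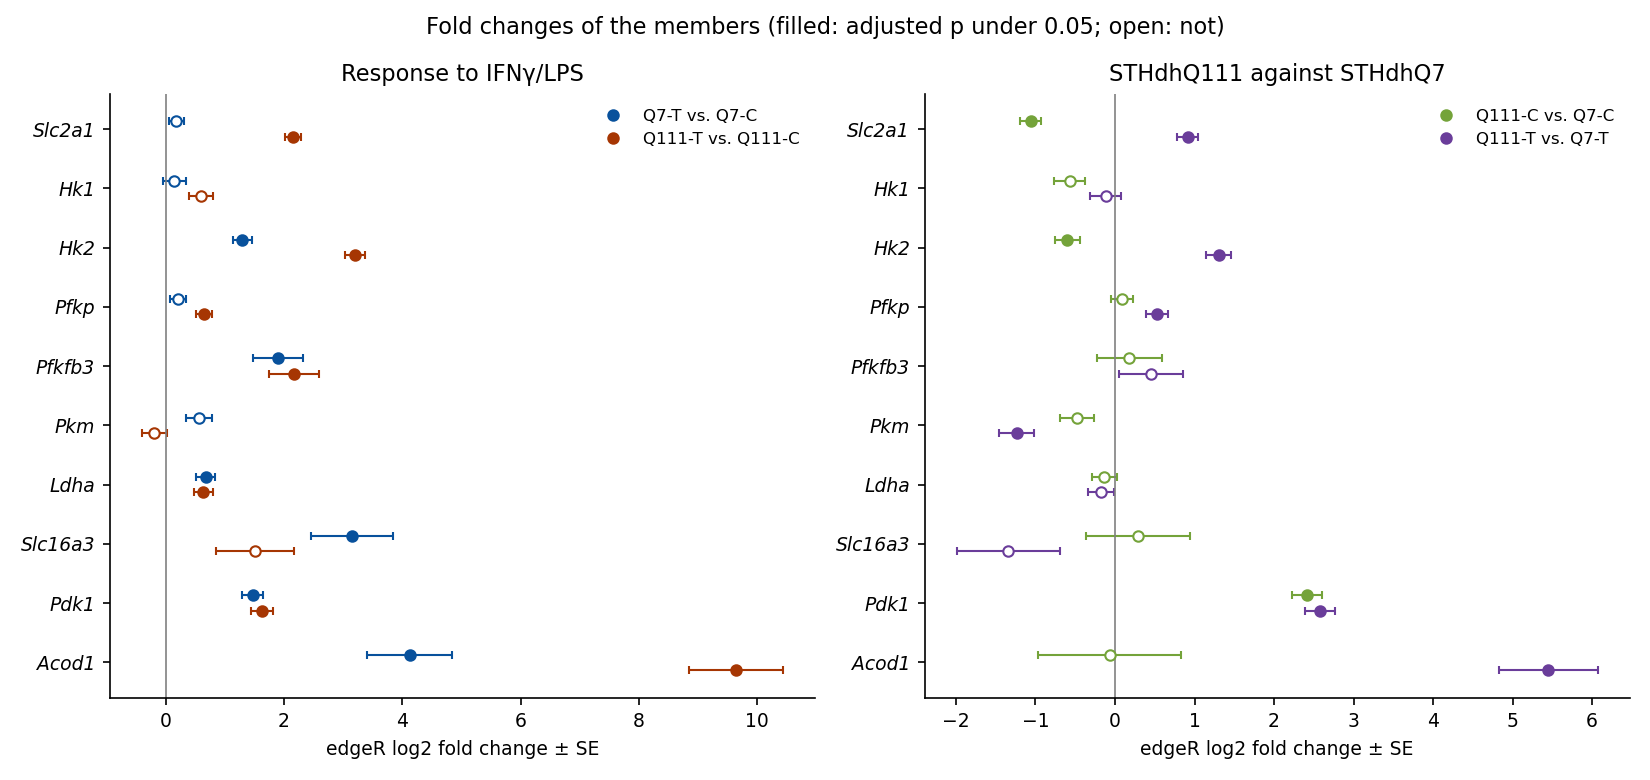
edgeR log2 fold change of each member, with its standard error as the bar; the left panel gives the response to IFNγ/LPS in each line and the right panel STHdhQ111 against STHdhQ7 cells without and with treatment, and filled points passed the test. Slc2a1, Hk2 and Acod1 are far apart between the lines in the left panel, whereas Pdk1, Ldha and Pfkfb3 lie close together.

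The last steps, pyruvate kinase and lactate dehydrogenase, were the most abundant members. Pkm (chromosome 9, 59656368 to 59679375, plus strand) was at 1438, 1604 and 1675 TPM in Q7-C and 1835, 1988 and 2097 TPM in Q7-T, and at 1436, 1401 and 1388 TPM in Q111-C and 1333, 861 and 1299.5 TPM in Q111-T. In TPM it was thus higher after treatment in STHdhQ7 cells and lower in STHdhQ111 cells, without overlap, but neither change passed the test (log2 0.56, SE 0.21, adjusted p = 0.209 and -0.19, SE 0.21, adjusted p = 0.634), and the difference between them did not either (-0.75, SE 0.30, adjusted p = 0.189). Without Q111-T replicate 2 the value in STHdhQ111 cells was -0.11 (adjusted p = 0.825). Between the treated lines Pkm was 0.424 times as high in Q111-T as in Q7-T (log2 -1.24, SE 0.22, adjusted p = 0.00102). Without replicate 2 of Q7-T the value was -0.95 (adjusted p = 5.69e-04), and the difference of Q111-C from Q7-C passed (-0.47, adjusted p = 0.0228, against -0.48 and 0.138 with that library). The counts are per gene, so the M1 and M2 splice forms of Pkm were not told apart.

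Ldha (chromosome 7, 46841475 to 46855627, plus strand) rose by like amounts in both lines. It was at 559.9, 633 and 638 TPM in Q7-C and 891, 758 and 888 TPM in Q7-T, and at 714, 679.5 and 696 TPM in Q111-C and 1092, 909 and 1032.5 TPM in Q111-T. Treated and control libraries did not overlap in either line. The rise was 1.60-fold in STHdhQ7 cells (log2 0.68, SE 0.16, adjusted p = 0.0324) and 1.55-fold in STHdhQ111 cells (log2 0.64, SE 0.16, adjusted p = 0.0169), and the responses differed by -0.04 (SE 0.23, adjusted p = 0.955). The call in STHdhQ7 cells was lost when Q7-C replicate 2 or 3 was left out, when any 1 Q111-C library or Q111-T replicate 1 or 3 was left out (adjusted p up to 0.142), and with the replicate number as a block. The call in STHdhQ111 cells was lost without any 1 of the Q111-C libraries or Q111-T replicate 1 (adjusted p up to 0.0848). Against Ldhb, the subunit of the isozymes that favour pyruvate, Ldha stood at 163, 178 and 274 to 1 in Q7-C but at 43.0, 32.1 and 36.4 to 1 in Q111-C. The denominator carried this difference, since Ldhb averaged 3.11 ± 0.67 TPM (SD, n = 3) in Q7-C but 19.0 ± 2.3 TPM (n = 3) in Q111-C (log2 2.24, SE 0.54, adjusted p = 0.0107).

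Slc16a3 (chromosome 11, 120948480 to 120958775, plus strand), the lactate exporter MCT4, was scarce throughout. It was at 0.52, 0.487 and 0.223 TPM in Q7-C and 2.36, 4.69 and 1.70 TPM in Q7-T, which did not overlap, and at 1.18, 0.369 and 0.375 TPM in Q111-C and 1.95, 1.14 and 2.22 TPM in Q111-T, which did. Slc16a3 is the only member for which Q7-T replicate 2 was the highest library of its group. The rise in STHdhQ7 cells was log2 3.15 (SE 0.70, adjusted p = 0.0211), or 2.21 (adjusted p = 0.0476) without that library, and it was lost without Q7-C replicate 2 or 3 (adjusted p up to 0.0911). In STHdhQ111 cells the log2 fold change was 1.51 (SE 0.66, adjusted p = 0.149), and the difference between the responses, -1.64 (SE 0.92), gave an adjusted p of 0.357. Slc16a1 (MCT1), which carries lactate in both directions, was far more abundant, so that the Slc16a3 to Slc16a1 ratio was at most 0.0692 in 11 libraries and 0.21 in Q7-T replicate 2. Slc16a1 did not pass after treatment in either line, with log2 fold changes of 0.47 (SE 0.19, adjusted p = 0.243) and 0.06 (SE 0.19, adjusted p = 0.887).

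Pdk1 (chromosome 2, 71873224 to 71903858, plus strand) had both a line difference and a treatment response, and these did not depend on each other to a detectable degree. Untreated STHdhQ7 cells gave 1.52, 2.45 and 2.52 TPM and treated ones 7.41, 2.65 and 6.38 TPM. In STHdhQ111 cells it was at 13.2, 14.7 and 14.5 TPM before and 46.1, 32.7 and 44.3 TPM after treatment. No 2 of the 4 groups overlapped. Treatment raised it 2.77-fold in STHdhQ7 cells (log2 1.47, SE 0.18, adjusted p = 3.86e-04) and 3.09-fold in STHdhQ111 cells (log2 1.63, SE 0.18, adjusted p = 7.49e-05), a difference of 0.16 (SE 0.25, adjusted p = 0.783). Without Q7-T replicate 2 the rise in STHdhQ7 cells was 1.66 (adjusted p = 9.84e-06). Untreated STHdhQ111 cells held 5.33-fold more Pdk1 than untreated STHdhQ7 cells (log2 2.41, SE 0.19, adjusted p = 4.05e-06) and treated ones 5.95-fold more (log2 2.57, SE 0.19, adjusted p = 2.26e-06). Pdk3 was the more abundant isozyme in every library, at 22.7 to 34.8 TPM in Q7-C and 83.1 to 89.2 TPM in Q111-T, and the Pdk1 to Pdk3 ratio went from 0.0722 ± 0.0065 to 0.158 ± 0.061 with treatment in STHdhQ7 cells and from 0.282 ± 0.013 to 0.484 ± 0.102 in STHdhQ111 cells (SD, 3 libraries per group).

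**Figure D3:**
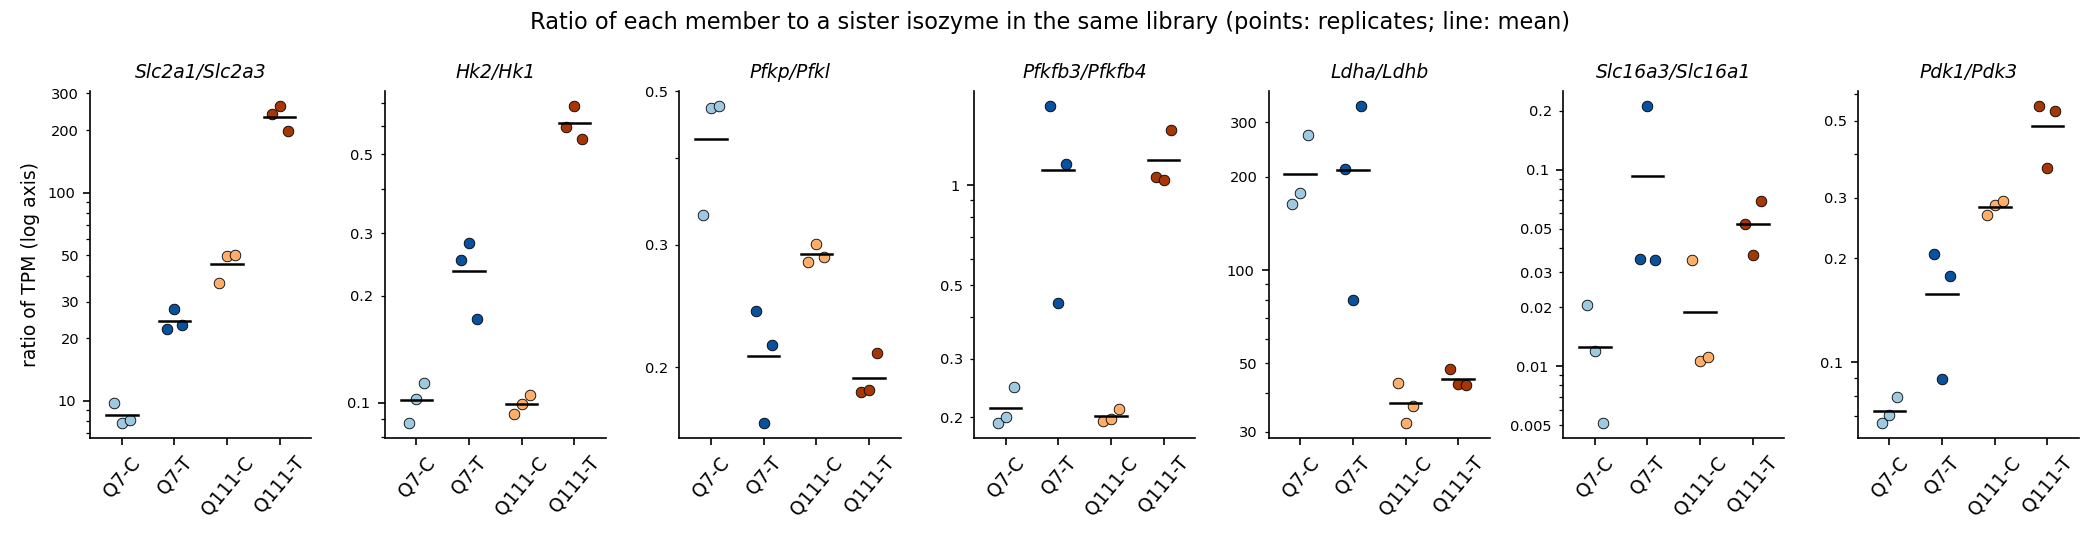
Ratio of TPM of each member to a sister gene in the same library, on a log axis with its own range in each panel; points are libraries and lines are group means. The Hk2 to Hk1 ratio of the Q111-T libraries (0.552 to 0.683) lies above that of all other libraries, and the Ldha to Ldhb ratio is lower in all 6 STHdhQ111 libraries than in any STHdhQ7 library.

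Acod1 (chromosome 14, 103046977 to 103056573, plus strand) was the member with the widest range. The control libraries held 0, 8 and 4 estimated counts in Q7-C and 8, 0 and 4 in Q111-C, all at or under the 12 counts taken here as the limit of detection (3 read pairs, if each gives about 4 counts), so that Acod1 was not detectable at this depth in either untreated line. Treated STHdhQ7 cells held 70, 52 and 59 counts (0.818, 0.508 and 0.443 TPM), and treated STHdhQ111 cells 3649, 2291 and 2861 counts (38.5, 26.4 and 39.3 TPM). All treated libraries lay above all controls, and all Q111-T above all Q7-T libraries. Set against 12 counts in every control library, Acod1 was at least 5.76-fold higher in Q7-T than in Q7-C (adjusted p = 0.00451) and at least 278-fold higher in Q111-T than in Q111-C (adjusted p = 6.43e-06). Between the treated groups, where both were detected, Acod1 was 43.7-fold higher in Q111-T (log2 5.45, SE 0.62, adjusted p = 5.24e-05). The difference between the treatment responses was fitted at log2 5.52 (SE 1.15, adjusted p = 0.0155), a value that depends on the near-zero controls: it was lost without Q7-C replicate 2 (adjusted p = 0.166) and held without each of the other libraries.

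Macrophages and microglia are the cells in which Acod1 is best known, and their markers were read in the same libraries. Of 13 listed, 10 were analysed here and 3 reached 1 TPM in any library, namely Cd68, Tmem119 and Lyz2. The pan-leukocyte gene Ptprc was listed at 0 in 11 libraries and at 0.0064 TPM in the other, Itgam did not exceed 0.076 TPM and Adgre1 0.046 TPM, and Csf1r was at 0.085 to 0.479 TPM, with its highest group mean in Q111-T (0.361 ± 0.155 TPM, against 0.209 ± 0.075 TPM in Q111-C; SD, 3 libraries per group). Trem2, a receptor of microglia and other macrophages, was below the filter. It was at 0.178, 0.440 and 0.303 TPM in Q111-T, above all other libraries, which held 0 to 0.111 TPM. The summed TPM of the list was 18.0 to 21.0 before and 12.7 to 20.0 after treatment in STHdhQ7 cells and 32.5 to 37.3 before and 46.6 to 63.3 after treatment in STHdhQ111 cells, so that it was highest in the group with the highest Acod1. Cd68, a lysosomal protein also made outside the macrophage lineage, carried this, with 48.5, 57.5 and 40.3 TPM in Q111-T against 14.9, 16.5 and 14.2 TPM in Q111-C (log2 1.81, SE 0.37, adjusted p = 0.0053). Tmem119, a microglial marker that bone-forming cells also make, fell after treatment in both lines (log2 -1.78, SE 0.23, adjusted p = 4.29e-04 and -1.77, SE 0.22, adjusted p = 1.86e-04). The part of such cells in the Acod1 values was not tested.

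In the untreated lines 1 member, Pdk1, was higher in Q111-C (11.1% of all genes were) and 2, Slc2a1 and Hk2, were lower (11.6%), and Pdk1 and Slc2a1 passed with at least 2-fold (15.2%). The libraries of the untreated lines did not overlap for 5 members, Slc2a1, Pfkp, Pkm, Ldha and Pdk1 (51.4% of all genes). Between the treated lines 5 members were higher in Q111-T (19.8% of all genes), namely Slc2a1, Hk2, Pfkp, Pdk1 and Acod1, and Pkm was lower (18.7%). Slc2a1 differed by less than 2-fold and Pfkp by 1.44-fold (log2 0.53, SE 0.14, adjusted p = 0.00995), which leaves 4 members with at least 2-fold (24.5%), and 7 members did not overlap (46.3%). For the difference between the responses, 3 members passed upward (3.94% of all genes), none passed downward (1.75%), and all 3 exceeded 2-fold (4.71%). The fits share their control or treated libraries, so the comparisons are not independent of each other. TPM and the scaled counts disagree by a common shift between the lines: on the log2(TPM + 0.5) scale the median gene stood 0.27 above Q7-C in the untreated and 0.34 above Q7-T in the treated STHdhQ111 cells, against -0.02 and -0.03 by edgeR. For Ldha this turned the sign, with all STHdhQ111 libraries higher than the STHdhQ7 libraries of the same treatment in TPM but log2 fold changes of -0.13 (adjusted p = 0.62) and -0.17 (adjusted p = 0.413) by edgeR. Hk1 also turned between the treated lines, with -0.12 (adjusted p = 0.659) by edgeR but a TPM ratio of 1.16. Members with a value above 0 numbered 4 by edgeR and 6 by limma on log2(TPM + 0.5) between the untreated lines. Between the treated lines they numbered 6 and 8.

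Of the other glycolysis genes, 19 of 24 listed were tested. In STHdhQ7 cells 3 rose and 1 fell, and in STHdhQ111 cells 7 rose and 1 fell, with medians of 0.61 and 0.66 on the log2 scale, or 0.26 and 0.66 without Q7-T replicate 2 and 0.32 and 0.43 by limma on log2(TPM + 0.5). Of all genes tested 3.61% rose and 1.74% fell in STHdhQ7 cells, and 11.3% and 7.33% in STHdhQ111 cells. DESeq2 called 8 up and 2 down in STHdhQ7 and 8 up and 1 down in STHdhQ111 cells, and at an unadjusted p under 0.05 edgeR had 11 up and 3 down and 9 up and 1 down. With a library that stood apart left out, 2 rose in STHdhQ7 cells and 5 to 11 in STHdhQ111 cells. Pfkl and Pgk1, the phosphoglycerate kinase of the payoff phase, rose in both lines, Pgk1 by 0.64 (SE 0.13, adjusted p = 0.012) and 0.66 (SE 0.13, adjusted p = 0.00349). Slc2a6 (GLUT6, a transporter found on lysosomes) was at 1.49, 1.16 and 1.22 TPM in Q111-C and 14.8, 11.2 and 11.9 TPM in Q111-T, a rise of log2 3.36 (SE 0.28, adjusted p = 6.94e-06), and like Slc2a1 it was lower in Q111-C against Q7-C (log2 -3.62, SE 0.28, adjusted p = 3.91e-06), where it was at 11.2 to 15.1 TPM. Its response in STHdhQ7 cells did not pass (0.82, SE 0.25, adjusted p = 0.103), and the responses differed by 2.54 on the log2 scale (SE 0.36, adjusted p = 0.00218). Slc2a3 (GLUT3, the neuronal transporter) fell from 7.10, 10.3 and 10.1 TPM to between 1.86 and 4.40 TPM in STHdhQ7 cells (log2 -1.30, SE 0.17, adjusted p = 6.55e-04) and was lower still in all STHdhQ111 libraries, with a mean of 1.03 TPM untreated and 0.835 TPM treated. Its responses differed by 1.08 (SE 0.25, adjusted p = 0.0251). The Slc2a1 to Slc2a3 ratio went from 8.57 ± 1.04 to 24.3 ± 3.0 with treatment in STHdhQ7 cells and from 45.5 ± 7.6 to 232 ± 32 in STHdhQ111 cells (SD, 3 libraries per group), with no overlap between any of the groups. Pgam2, the muscle-type phosphoglycerate mutase, passed in STHdhQ7 cells (log2 3.41, SE 0.89, adjusted p = 0.0498) with a group mean of 22.6 ± 22.1 TPM. Its highest Q7-T library was at 46.8 TPM, and the Q7-T libraries overlapped those of Q7-C. The isomerase Tpi1, with the highest mean TPM of the list over the 12 libraries, did not pass (0.93, SE 0.30, adjusted p = 0.123 and 0.54, SE 0.30, adjusted p = 0.265).

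By edgeR none of 20 TCA cycle genes passed in STHdhQ7 cells (1 was lower at an unadjusted p under 0.05, and 1 fell by DESeq2). There 11 fitted values were above 0 and 9 below, but 3 above and 17 below by limma on log2(TPM + 0.5), so that no direction holds across these scalings. In STHdhQ111 cells 5 fell, against 7.33% of all genes, none rose, and the fitted value was below 0 for all 20 by either tool (median log2 fold change -0.31 by edgeR). The 5 were Idh2, the mitochondrial NADP-dependent isocitrate dehydrogenase (from 203 ± 8 to 111 ± 10 TPM, log2 -0.78, SE 0.23, adjusted p = 0.0369), Aco1, the cytosolic aconitase (log2 -0.73, SE 0.17, adjusted p = 0.0105), and Suclg1, Ogdh and Idh1 (-0.55 to -0.67). None of the succinate dehydrogenase genes Sdha, Sdhb, Sdhc and Sdhd, whose enzyme itaconate inhibits, passed in STHdhQ111 cells (log2 -0.20 to -0.35). The difference between the responses of the lines passed for none of the 20 genes in edgeR's test (4 at an unadjusted p under 0.05, all lower in STHdhQ111 cells, and 1 by DESeq2), so that the fall is not shown to be particular to STHdhQ111 cells. By limma on log2(TPM + 0.5), and by edgeR without Q7-T replicate 2, 1 gene passed, lower in STHdhQ111 cells. Without Q111-T replicate 2 the number that fell was 3, and without Q7-T replicate 2 it was 9.

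Of 13 genes of pyruvate entry into mitochondria, Pdk3 rose (log2 0.88, SE 0.16, adjusted p = 0.00239) and the phosphatase gene Pdp1, whose product reverses the action of the kinases, fell (log2 -0.69, SE 0.16, adjusted p = 0.00961) in STHdhQ111 cells, where 11.3% of all genes rose and 7.33% fell, and none passed by edgeR in STHdhQ7 cells (4 at an unadjusted p under 0.05, 1 by DESeq2). In the pentose phosphate pathway Rpe rose (0.99, SE 0.26, adjusted p = 0.0212) and Tkt, transketolase, fell (-0.65, SE 0.16, adjusted p = 0.0141) in STHdhQ111 cells, out of 7 genes, with none by edgeR in STHdhQ7 cells (2 at an unadjusted p under 0.05, 1 by DESeq2). The call of Rpe was lost without Q111-T replicate 2, and those of Rpe and Pdp1 by limma on log2(TPM + 0.5). None of the 4 genes Pfkfb1, Pfkfb2, Pfkfb4 and Tigar, and none of the 3 tested genes of lactate handling, passed by edgeR after treatment in either line. In STHdhQ7 cells 2 of the former passed by DESeq2 and 2 of each list were at an unadjusted p under 0.05, and in STHdhQ111 cells 2 of the former and 0 of the latter were at such a p, with 0 by DESeq2. Without Q7-T replicate 2 edgeR called 1 gene of lactate handling up in STHdhQ7 cells and 1 of the former up in STHdhQ111 cells, and with only the compared groups 1 of each list was up in STHdhQ111 cells. Of 4 tested genes on the fate or transport of itaconate and its relatives, the mitochondrial dicarboxylate carrier Slc25a10 fell in STHdhQ111 cells (-0.72, SE 0.23, adjusted p = 0.0487), a call that was lost with the replicate block and without Q111-T replicate 2, and none passed in STHdhQ7 cells by edgeR, by DESeq2 or at an unadjusted p under 0.05.

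**Figure D4:**
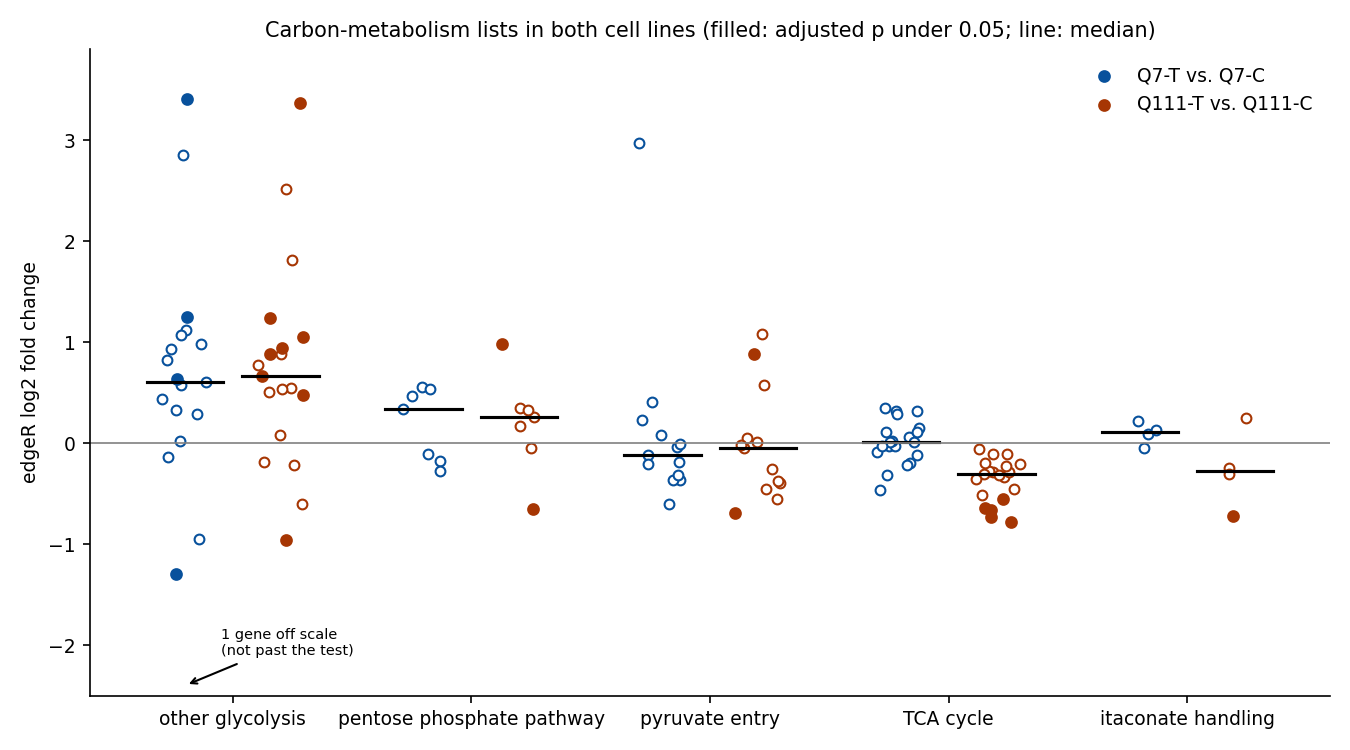
edgeR log2 fold change after IFNγ/LPS for each tested gene of 5 carbon-metabolism lists, in STHdhQ7 (blue) and STHdhQ111 cells (brown); filled points passed the test, lines are list medians, and 1 gene that did not pass lies below the axis range in STHdhQ7 cells. All 20 TCA cycle genes lie below 0 in STHdhQ111 cells, 5 of them past the test.

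Genes of oxygen sensing were read because several members are known HIF-1 targets. The transcript of Hif1a itself, which is controlled mainly through the stability of its protein, was at 50.6, 62.1 and 65.9 TPM in Q111-C and 68.9, 55.9 and 71.8 TPM in Q111-T, with overlapping groups (log2 0.24, SE 0.33, adjusted p = 0.718). In STHdhQ7 cells it was at 15.8, 36.7 and 46.5 TPM untreated and 92.5, 20.1 and 60.5 TPM treated (log2 0.93, SE 0.33, adjusted p = 0.17). Of the 8 genes of the HIF system none passed by edgeR in STHdhQ7 cells (4 were higher at an unadjusted p under 0.05, and 2 rose by DESeq2) and 3 rose in STHdhQ111 cells, where 3.61% and 11.3% of all genes rose. Without Q7-T replicate 2 the number that rose was 2 in STHdhQ7 cells and again 3 in STHdhQ111 cells. The 3 called with all libraries were the prolyl hydroxylases Egln3 (log2 3.01, SE 0.25, adjusted p = 8.26e-06) and Egln1 (1.18, SE 0.13, adjusted p = 8.43e-05), which mark HIF for destruction and are themselves known HIF targets, and Vhl (1.02, SE 0.16, adjusted p = 8.79e-04). Egln3 was at 1.05, 1.30 and 0.762 TPM in Q111-C and 7.20, 7.53 and 8.72 TPM in Q111-T, but already at 3.72, 5.04 and 5.07 TPM in Q7-C and at 6.69 ± 0.36 TPM (SD, n = 3) in Q7-T. The treated lines were thus near each other and the untreated lines far apart.

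Of 13 hypoxia-responsive genes outside glycolysis, 11 rose in STHdhQ111 cells and none fell (0 also by DESeq2 and at an unadjusted p under 0.05), where 11.3% of all genes rose, with a median log2 fold change of 1.00. In STHdhQ7 cells 2 rose (Bnip3 and Bnip3l) and 1 fell (Bhlhe40), against 3.61% and 1.74% of all genes. The median there was 0.14, but 0.38 without Q7-T replicate 2, 0.075 without Q7-C replicate 1 and -0.09 by limma on log2(TPM + 0.5), so that its sign depends on the scaling. The number that rose in STHdhQ7 cells was 1 without Q111-T replicate 2, with the replicate block, with only the compared groups and by limma on log2(TPM + 0.5). Vegfa, the vascular growth factor, was at 16.2, 18.8 and 17.3 TPM in Q111-C and 85.2, 64.3 and 82.0 TPM in Q111-T (log2 2.24, SE 0.19, adjusted p = 7.38e-06), against 20.3, 30.6 and 33.4 TPM in Q7-C and 37.1, 13.4 and 34.5 TPM in Q7-T (log2 0.14, SE 0.18, adjusted p = 0.796). The peptide hormone gene Adm rose from 5.75 ± 0.21 to 35.2 ± 2.7 TPM in STHdhQ111 cells (log2 2.71, SE 0.27, adjusted p = 2.83e-05), the mTORC1 inhibitor gene Ddit4 from 64.0 ± 1.7 to 317 ± 44 TPM (log2 2.41, SE 0.23, adjusted p = 2.01e-05) and the mitophagy receptor gene Bnip3 from 23.5 ± 0.1 to 159 ± 27 TPM (log2 2.88, SE 0.27, adjusted p = 1.78e-05; SD, n = 3 each). In STHdhQ7 cells Bnip3 rose too, from 10.5 ± 1.8 to 30.7 ± 5.7 TPM (SD, n = 3 each). The difference between the responses of the lines passed for 6 of the 13, all larger in STHdhQ111 cells, against 3.94% of all genes (9 by DESeq2, 4 by limma on log2(TPM + 0.5)), with Vegfa at 2.10 (SE 0.26, adjusted p = 9.09e-04) and Ddit4 at 2.29 (SE 0.31, adjusted p = 0.00179). Not every gene of the list moved. Car9, the carbonic anhydrase that is among the best known HIF-1 targets, was at 1.22, 2.27 and 1.90 TPM in Q111-C and 1.24, 1.56 and 1.17 TPM in Q111-T (log2 -0.30, SE 0.35, adjusted p = 0.654). Chosen after seeing the data, a fit without Q7-T replicate 2 gave 3 up and 1 down in STHdhQ7 cells and 11 up in STHdhQ111 cells, and by limma on log2(TPM + 0.5) the number that rose in STHdhQ111 cells was 6. No oxygen measurement was analysed here.

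**Figure D5:**
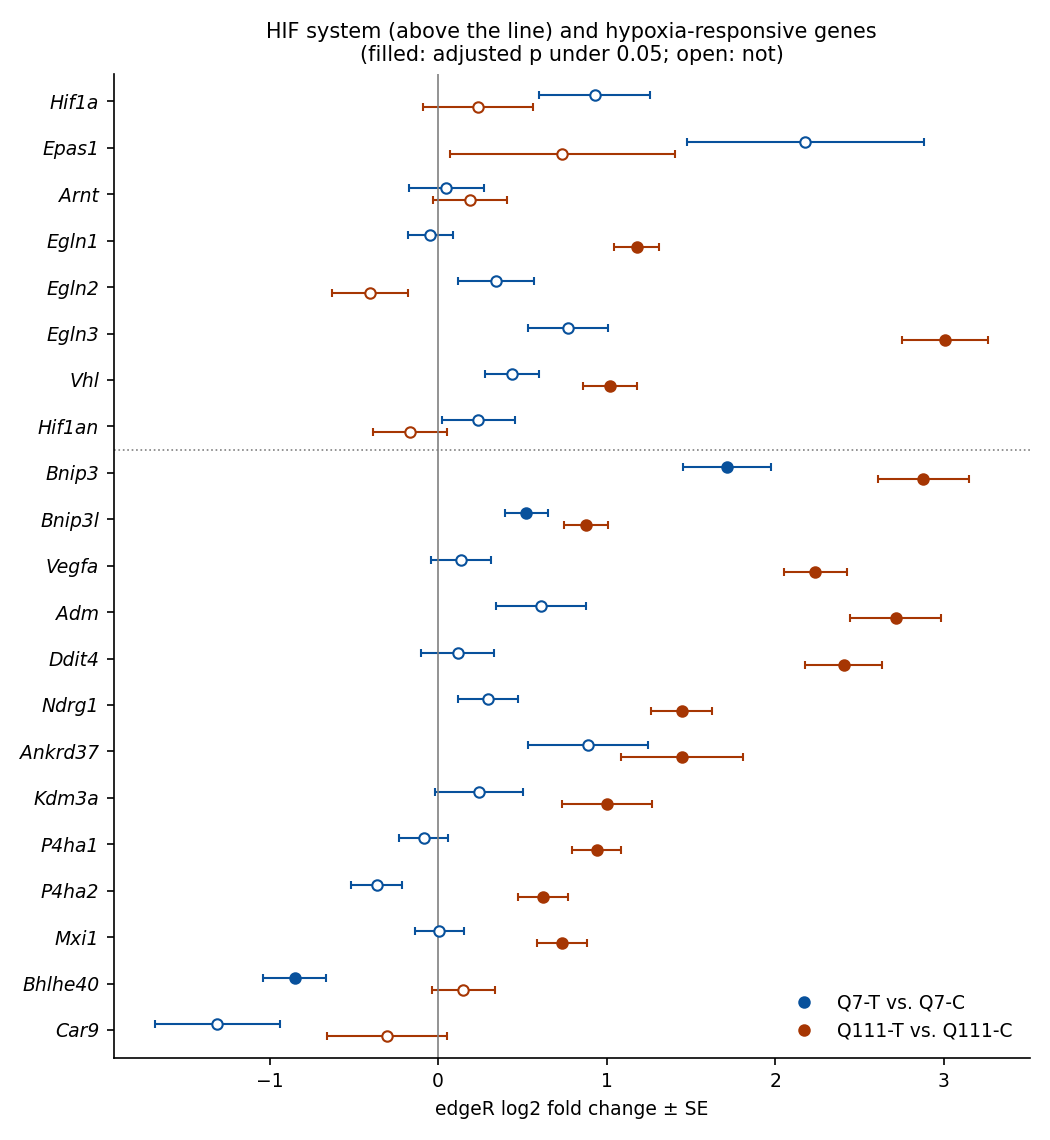
edgeR log2 fold change after IFNγ/LPS, with its standard error, for the HIF system (above the dotted line) and 13 hypoxia-responsive genes outside glycolysis, in STHdhQ7 (blue) and STHdhQ111 cells (brown); filled points passed the test. Vegfa, Adm, Ddit4 and Egln3 stand between 2.24 and 3.01 in STHdhQ111 cells and between 0.11 and 0.77 in STHdhQ7 cells. Bnip3 lies in the same span in STHdhQ111 cells but passed in both lines, while Hif1a passed in neither.

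Among regulators named with glycolysis or Acod1, 8 of 9 were tested, and 4 rose in STHdhQ7 and 5 in STHdhQ111 cells, where 3.61% and 11.3% of all genes rose. In STHdhQ7 cells 3 rose with the replicate block, and also without Q7-C replicate 1 or Q111-T replicate 2. The difference between the responses passed for 1 of the 8, lower in STHdhQ111 cells (1.75% of all genes). None passed upward (3.94%), and DESeq2 gave 1 in each direction. The interferon-response factors responded in both lines. Irf1 was at 11.5, 19.0 and 15.6 TPM in Q7-C and 301, 126 and 321 TPM in Q7-T. In STHdhQ111 cells it was at 39.0, 46.4 and 44.5 TPM untreated and 595, 403 and 489 TPM treated, so that the untreated lines already differed in TPM. Irf8 reached 7.66, 6.70 and 8.19 TPM in Q7-T and 9.53, 7.74 and 8.17 TPM in Q111-T, which overlap, from at most 0.184 TPM untreated. Txnip, which restrains glucose uptake, rose in both (0.93, SE 0.23, adjusted p = 0.0386 and 1.61, SE 0.23, adjusted p = 5.10e-04). Nfe2l2, the antioxidant regulator that itaconate is known to activate, passed in STHdhQ111 cells (1.06, SE 0.18, adjusted p = 0.00145), and Myc passed in neither (0.11, SE 0.26, adjusted p = 0.902 and 0.17, SE 0.26, adjusted p = 0.743).

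The genes whose pattern over the 12 libraries was most like that of a member are given by Pearson's r of log2(TPM + 0.5), as a description over libraries that share their groups. For Acod1 they were Tor3a (r = 0.994), Gm5431 (0.994) and Csf3 (0.994), the last rising on average from 0.244 to 0.948 TPM in STHdhQ7 cells and from 0.262 to 34.0 TPM in STHdhQ111 cells. For Slc2a1 they were Mafk (0.990), Cdkn1a (0.985) and Hap1 (0.984), each lowest in Q111-C and highest in Q111-T. Hk2 was most like Gm31522 (0.985), Cyp7b1 (0.985) and Gm5970 (0.984), all under 10 TPM on average, and Pfkfb3 most like Ccdc25 (0.975), Irak2 (0.973) and Adamts7 (0.972). Within the members Hk2 went with Acod1 at r = 0.939 and with Slc2a1 at 0.936. The lowest values were those of Pkm with Pdk1 (-0.623) and with Acod1 (-0.574).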

How the data were processed

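The levels of 10 genes were read in 12 poly(A) RNA libraries (stranded kit, paired-end), 4 groups of 3. Per the methods and the submitters' processing notes, the authors trimmed reads with cutadapt and in-house scripts, checked them with FastQC, aligned them to GRCm38 (Ensembl annotation) with HISAT2 and assembled and quantified genes with StringTie, and DESeq2 and edgeR are named. Whether counting used the strand is not given in the sources used here. The deposited table holds, as the authors made it, whole-number estimated counts and TPM per gene and library. Of the counts from 1 to 12, 34.6% were multiples of 4, and 4, 8 and 12 were each more frequent than their neighbours. A read pair was therefore taken as worth about 4 counts and 12 counts as the detection limit, an assumption that covers counting error only. The TPM of a library sum to 688352 to 719623 over the 29428 rows.

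Counts were tested with edgeR 4.0.16 in R 4.3.3 (quasi-likelihood test, TMM scaling, all 12 libraries in 1 fit, genes at 0.5 TPM in at least 3 libraries, Benjamini-Hochberg adjustment over all 16127 genes) in 5 comparisons: each line's treatment response, the lines untreated and treated, and the difference between the responses. The script was tested on simulated data. Single ratios of TPM were compared by exact permutation tests, two-sided (28 tests over 7 ratios), for which 3 against 3 libraries allow no p below 0.1. Alternatives were DESeq2 1.42.0, limma 3.58.1 on log2(TPM + 0.5), + 0.1 and + 1, other scalings and filters, counts divided by 4, the compared groups alone, the replicate number as a block and each library left out. The members and the 10 further lists (109 genes) were chosen with earlier results of these data known. All 10 members are named, and for 4 of them the 3 genes with the highest Pearson r. None of the 12 pairs of libraries within groups agreed within counting noise (chi-square per degree of freedom at least 5.05). Hk3 and 6 listed markers were not analysed here. A few listed genes enter the counts of their lists but are not reported here by name.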

Additional observations from a re-analysis of the deposited data

Results flagged for a closer look

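The response to IFNγ/LPS differed between the lines, by edgeR's test of the difference itself, for 3 of the 10 members. It was larger in STHdhQ111 cells by 1.97 on the log2 scale for Slc2a1 (adjusted p = 1.72e-04), by 1.91 for Hk2 (adjusted p = 7.02e-04) and by 5.52 for Acod1 (adjusted p = 0.0155). For Slc2a1 and Hk2 all 3 treated libraries of STHdhQ111 cells lay above all 3 treated libraries of STHdhQ7 cells, and the difference passed under every alternative run. For Acod1 both untreated groups were at or under the detection limit of 12 counts, and the difference was lost without Q7-C replicate 2 (adjusted p = 0.166).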

How the results depend on the processing

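Over 1090 alternative values for the 50 member results, 1032 kept their side of the threshold, 47 lost the call, 11 gained it and none reversed a called direction. The treatment response of STHdhQ7 cells was the least stable: members past the test numbered 3 by limma on log2(TPM + 0.5) or + 0.1, 2 by limma on log2(TPM + 1), 2 with only the compared groups, and 3 to 6 with a library left out, against 6. At 2-fold or more they numbered 2, 2, 1 and 2 in the same settings and 3 to 5 with a library left out, against 5. For Q111-C vs. Q7-C, members past the test numbered 5 with only the compared groups and 2 to 5 with a library left out, against 3, and those at 2-fold numbered 1 by all 3 limma fits and 1 to 2 with a library left out, against 2. The Pfkp response of STHdhQ111 cells was lost in the 3 limma fits (adjusted p up to 0.239), as were those of Hk2, Pdk1 and Pfkfb3 in STHdhQ7 cells (up to 0.0895, 0.114 and 0.313). In STHdhQ7 cells the call of Acod1 was lost by limma on log2(TPM + 1) and with only the compared groups (up to 0.0977), and with only the compared groups those of Pfkfb3, Ldha and Slc16a3 were lost too (Ldha up to 0.261, Slc16a3 up to 0.0912), that of Ldha also with no filter on low values. The cause was not tested.

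With 0.5 added to both TPM values, the log2 difference of a ratio was 2.30 instead of 2.54 for Pfkfb3 to Pfkfb4 in Q111-T vs. Q111-C, 1.72 instead of 1.97 for Pdk1 to Pdk3 in Q111-C vs. Q7-C, and 1.91 and 2.79 instead of 2.40 and 3.26 for Slc2a1 to Slc2a3 between the untreated and the treated lines.

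Same-numbered libraries deviated together in no consistent way (r from -0.416 to 0.303 over 4 comparisons), so the numbers were not taken to pair the libraries. With the replicate number as a block, 5, 7, 3, 6 and 3 members passed in the 5 comparisons, and of the members' calls only that of Ldha in STHdhQ7 cells was lost. Over all genes the block gave 487 up and 194 down in Q7-T vs. Q7-C, against 582 and 280. DESeq2 gave 891 up and 618 down there, and 1183 and 797 for the difference between responses, against 636 and 283. With only the compared groups the counts were 317 and 80 in Q7-T vs. Q7-C, and 3046 and 2428 against 1828 and 1182 in Q111-T vs. Q111-C. By limma on log2(TPM + 0.5) the untreated lines (Q111-C against Q7-C) gave 2481 up and 1134 down in place of 1796 and 1868, and the treated lines 4303 and 1556 in place of 3189 and 3009. Depth limits Acod1 in the untreated lines.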
